A study of Mus musculus with 8 samples.

Results

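Brush border genes were followed in 8 mouse colonic tumors on Affymetrix gene arrays, with 1 array per tumor. The genes were Vil1, Cdhr2, Cdhr5, Mep1a, Mep1b, Alpi, Anpep, Sis, Lct and Dpp4. They were chosen by symbol: a row of the deposited table was taken where its probe annotation gave that symbol and no other. All 10 of 10 were found, each with 1 row, among 19938 genes in all.

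The brush border is the carpet of microvilli on the luminal face of absorptive cells in the intestine. Each microvillus is held up by bundled actin filaments, and neighbouring tips are linked by protocadherins. Its membrane carries enzymes that face the lumen and finish the digestion of peptides, sugars and phosphate esters. Several of these enzymes, such as sucrase-isomaltase and lactase, are known mainly from the small intestine, whereas villin and meprin are also found in colon.

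The tumors fell into 3 groups by genotype label. The K-rasG12Dint group (3 arrays, here K-rasG12D AOM) and the LSL-K-rasG12D/+ group (2 arrays, here LSL AOM) were tumors of the distal colon induced by azoxymethane (AOM), a colon carcinogen. The serrated group (3 arrays) was made of serrated tumors of the proximal colon labelled K-rasG12Dint/Ink4a/Arf-/-, thus carrying the same K-ras label and lacking the Ink4a/Arf tumor suppressor locus, and their titles do not name AOM. LSL is a lox-stop-lox cassette that silences an allele until it is recombined. The labels give neither ages nor the recombinase or promoter behind the suffix int. They do not say whether the tumors of a group came from separate mice. Each p-value thus reflects only how these samples varied, which may not be variation between mice. No normal colon was measured. The effects of segment, Ink4a/Arf genotype, AOM and tumor type cannot be told apart in any comparison with the serrated group. Against LSL AOM tumors the K-ras label differs as well and cannot be told apart from these. The same holds in part against all AOM tumors, which include the LSL AOM group.

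A level below is a deposited log2 signal, in which 1 unit is a doubling, and levels of different genes are not compared. Passing means an adjusted p under 0.05 in limma, with the Benjamini-Hochberg correction taken across the 19938 genes. An error beside a level is the SD and an error beside a difference is the standard error (SE). The median gene stood between 4.17 and 4.31 on the 8 arrays. Serrated replicate 1 stood apart: the spread of its gene levels was narrow (SD 1.77, elsewhere 2.00 to 2.13), and its lower quartile was 3.00, against 2.50 to 2.75.

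In serrated tumors 6 of the 10 brush border genes were higher than in AOM tumors, and none was lower. These were the microvillar cadherins Cdhr2 and Cdhr5, both meprin subunits Mep1a and Mep1b, the alkaline phosphatase Alpi and the disaccharidase Sis. Over all genes, 3.62% passed as higher and 5.76% as lower in this comparison. The median log2 difference was 1.68 for the 10 genes and 0.04 for all genes. On the arrays themselves the same 6 genes lay higher on all 3 serrated arrays than on all 5 AOM arrays, which was so for 7.24% of all genes. The 4 genes that did not pass were Vil1, Anpep, Lct and Dpp4.

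**Figure D1:**
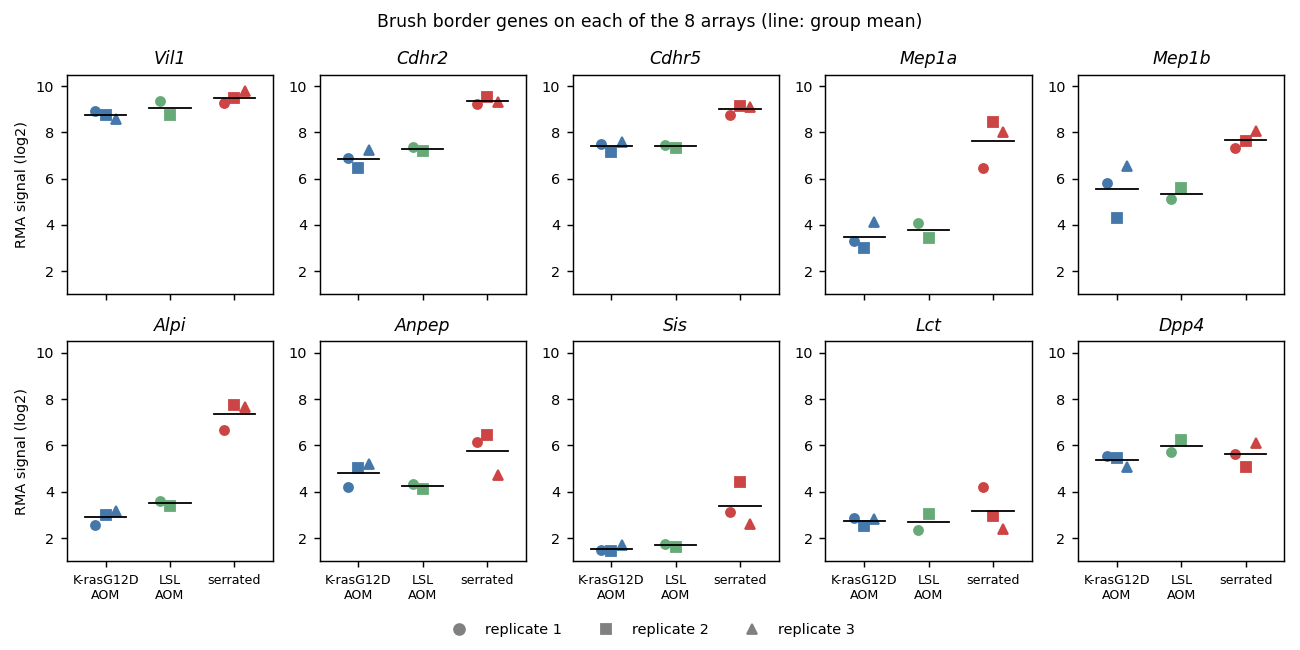
Each panel plots 1 gene, with the log2 RMA signal on the vertical axis, 1 point per array and a line at the group mean. For Cdhr2, Cdhr5, Mep1a, Mep1b, Alpi and Sis all 3 serrated arrays lie above all 5 AOM arrays, and for Vil1, Anpep, Lct and Dpp4 the groups overlap.

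Among the structural genes, Vil1 encodes villin, which bundles and severs actin in the microvillus core. Its level was 8.91, 8.74 and 8.58 in K-rasG12D AOM tumors, 9.35 and 8.77 in LSL AOM tumors, and 9.25, 9.47 and 9.78 in serrated tumors. The gene was bright on every array, and LSL AOM replicate 1 lay within the serrated values. The difference of serrated minus AOM was 0.60 ± 0.19 with a 95% interval of 0.16 to 1.04, and it did not pass (adjusted p = 0.0901, limma). It passed with quantile normalization (0.77, adjusted p = 0.0183, limma) and with array weights (0.55, adjusted p = 0.00188, limma). Array weights rest largely on serrated replicate 2, and with them 25.8% of all genes passed as higher and 26% as lower.

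Cdhr2 and Cdhr5 encode the protocadherins that form the thread-like links between the tips of neighbouring microvilli. Cdhr2 stood at 6.90, 6.45 and 7.23 in K-rasG12D AOM tumors, 7.38 and 7.19 in LSL AOM tumors, and 9.24, 9.52 and 9.32 in serrated tumors. The serrated arrays were close together, with a mean of 9.36 ± 0.15 (SD, n = 3), and well clear of the highest AOM array. Its difference was 2.29 ± 0.20, which is 4.87-fold (adjusted p = 0.000537, limma). Cdhr5, its partner in these links, stood at 7.49, 7.17 and 7.58 in K-rasG12D AOM tumors, 7.46 and 7.33 in LSL AOM tumors, and 8.75, 9.14 and 9.12 in serrated tumors. The 5 AOM arrays spanned 0.42 and the 3 serrated arrays 0.39, and the gap between them was wider than either. Its difference was 1.60 ± 0.17, or 3.03-fold (adjusted p = 0.00120, limma). Both cadherins passed in this comparison under all 15 alternative settings, Cdhr2 with differences between 2.10 and 2.45 and Cdhr5 between 1.41 and 1.75.

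The meprins are zinc metalloproteases of the brush border, built from alpha subunits (Mep1a) and beta subunits (Mep1b). Mep1a stood at 3.29, 3.01 and 4.12 in K-rasG12D AOM tumors, 4.10 and 3.43 in LSL AOM tumors, and 6.48, 8.43 and 8.01 in serrated tumors. All AOM arrays were below the median gene of their array, and serrated replicate 1 was lower than the other serrated arrays. The difference was 4.02 ± 0.45, or 16.2-fold (adjusted p = 0.00143, limma). It passed under all 15 alternative settings, with differences from 3.63 without serrated replicate 2 to 4.83 with array weights.

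Mep1b, the beta subunit, stood at 5.83, 4.29 and 6.53 in K-rasG12D AOM tumors, 5.12 and 5.58 in LSL AOM tumors, and 7.31, 7.62 and 8.04 in serrated tumors. The K-rasG12D AOM arrays spread over 2.24 units, wider than the serrated arrays, yet the highest of them stayed below the lowest serrated array. The difference was 2.21 ± 0.45, or 4.62-fold (adjusted p = 0.0186, limma). It no longer passed without serrated replicate 2 (2.23, adjusted p = 0.0775, limma), LSL AOM replicate 1 (2.09, 0.0740) or LSL AOM replicate 2 (2.32, 0.0525).

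The other peptidases did not pass. Anpep encodes aminopeptidase N, which trims amino acids from the amino end of peptides. Its level was 4.22, 5.02 and 5.18 in K-rasG12D AOM tumors, 4.35 and 4.14 in LSL AOM tumors, and 6.16, 6.46 and 4.72 in serrated tumors. Serrated replicates 1 and 2 were above every AOM array, and serrated replicate 3 lay among them. The difference was 1.25 ± 0.39 with a 95% interval of 0.36 to 2.15 (adjusted p = 0.0831, limma), and without serrated replicate 3 it was 1.78 and passed (adjusted p = 0.00443, limma). With array weights it was 2.00 and passed as well (5.95e-05), as did 25.8% of all genes in that direction.

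Dpp4, which removes dipeptides from the amino end and is also a surface marker of T cells and fibroblasts, stood at 5.53, 5.44 and 5.09 in K-rasG12D AOM tumors. It stood at 5.71 and 6.22 in LSL AOM tumors and at 5.65, 5.08 and 6.12 in serrated tumors. The serrated arrays overlapped both AOM groups, while all 3 K-rasG12D AOM arrays lay below both LSL AOM arrays. The difference was -0.04 ± 0.25, with a 95% interval from -0.62 to 0.53 (adjusted p = 0.928, limma), so changes of up to those sizes in either direction are not resolved by these arrays. With array weights the difference was -0.60 and passed as lower (adjusted p = 0.00566, limma), as did 26% of all genes.

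Alpi encodes intestinal alkaline phosphatase, which removes phosphate from lipids, nucleotides and bacterial endotoxin. Its level was 2.56, 2.98 and 3.16 in K-rasG12D AOM tumors, 3.62 and 3.40 in LSL AOM tumors, and 6.66, 7.73 and 7.65 in serrated tumors. The AOM arrays all lay under the median gene of their array, and the lowest serrated array was far above the highest of them. The difference was 4.14 ± 0.27, or 17.7-fold (adjusted p = 0.000134, limma). Folds against levels this dim are uncertain. Over the 15 alternative settings the Alpi difference ran from 3.95 to 4.57 and passed in all of them.

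Of the disaccharidases, Sis encodes sucrase-isomaltase, which splits sucrose and the branch points of starch. It stood at 1.48, 1.44 and 1.72 in K-rasG12D AOM tumors, 1.73 and 1.63 in LSL AOM tumors, and 3.11, 4.41 and 2.63 in serrated tumors. The gene was dim throughout: only on serrated replicate 2 was it above the median gene of the array. On the AOM arrays it ranked among the dimmest genes, between percentile 2.17 and 6.99 of all genes, so the size of its difference is uncertain and no fold is given. The difference was 1.77 ± 0.35 (adjusted p = 0.0175, limma). It did not pass without LSL AOM replicate 1 (1.79, adjusted p = 0.0599, limma) or LSL AOM replicate 2 (1.74, 0.0630), and it was 2.78 with array weights, which favoured serrated replicate 2. The SD of Sis was 0.92 in serrated tumors (n = 3) and 0.14 over the AOM arrays (n = 5), and the fit gives all groups 1 shared spread, so its error is too small for the serrated side.

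Lct encodes lactase, the enzyme that splits milk sugar. Its level was 2.85, 2.51 and 2.81 in K-rasG12D AOM tumors, 2.35 and 3.03 in LSL AOM tumors, and 4.21, 2.96 and 2.38 in serrated tumors. Serrated replicate 1, the array with the raised lower quartile, was the high value, and serrated replicates 2 and 3 lay within the AOM range. The difference was 0.48 ± 0.38 with a 95% interval from -0.38 to 1.33 (adjusted p = 0.465, limma), and it was -0.04 without serrated replicate 1.

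The 3 serrated tumors did not rank alike. Serrated replicate 1 was the lowest of them for 6 genes (Vil1, Cdhr2, Cdhr5, Mep1a, Mep1b and Alpi) and the highest for Lct. Serrated replicate 2 was the highest for 6 genes (Cdhr2, Cdhr5, Mep1a, Alpi, Anpep and Sis). Serrated replicate 3 was the lowest for Anpep, Sis and Lct and the highest for Vil1, Mep1b and Dpp4. The range over the serrated arrays was 0.28 for Cdhr2 and 0.39 for Cdhr5, whereas it was 1.07 for Alpi and between 1.74 and 1.95 for Anpep, Sis, Lct and Mep1a. The cadherins were thus the most even of the 10 genes across serrated tumors.

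Set against each AOM group alone, the serrated tumors gave similar lists, which share the serrated arrays and are not separate support. Against K-rasG12D AOM tumors, which carry the same K-ras label, 6 of 10 genes passed as higher (Cdhr2, Cdhr5, Mep1a, Mep1b, Alpi and Sis), and 2.46% of all genes did. Alpi differed by 4.45 ± 0.30 (adjusted p = 0.000306, limma) and Mep1a by 4.17 ± 0.49 (0.00297). Mep1b (2.11, adjusted p = 0.0403) and Sis (1.84, 0.0285) passed narrowly. Mep1b did not pass without K-rasG12D AOM replicate 1 (2.25, adjusted p = 0.0910, limma), K-rasG12D AOM replicate 2 (1.48, 0.0624) or serrated replicate 2 (2.13, 0.126). It did not pass with only the arrays of the groups compared in the fit either (2.11, 0.0704). Leaving out either LSL AOM array gave that same result again, since a lone array adds nothing to the shared spread. Sis did not pass when any 1 K-rasG12D AOM array was left out (1.78 to 1.93, adjusted p up to 0.114, limma). Nor did Sis pass with only the groups compared in the fit (1.84, 0.0542), a result that leaving out either LSL AOM array repeated.

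Against LSL AOM tumors 5 of 10 genes passed as higher (Cdhr2, Cdhr5, Mep1a, Mep1b and Alpi), and 2.31% of all genes did. Alpi differed by 3.84 ± 0.33 (adjusted p = 0.000874, limma), Cdhr2 by 2.07 ± 0.24 (0.00343) and Mep1a by 3.88 ± 0.55 (0.00710). Sis differed by 1.70 ± 0.44 and did not pass (adjusted p = 0.0575). The LSL AOM group had 2 arrays. Without LSL AOM replicate 2 it had 1, and fewer brush border genes and fewer of all genes passed. Mep1b passed at 0.0461 and did not pass without K-rasG12D AOM replicate 1, serrated replicate 2, serrated replicate 3 or either LSL AOM array (2.08 to 2.54, adjusted p between 0.0544 and 0.283).

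**Figure D2:**
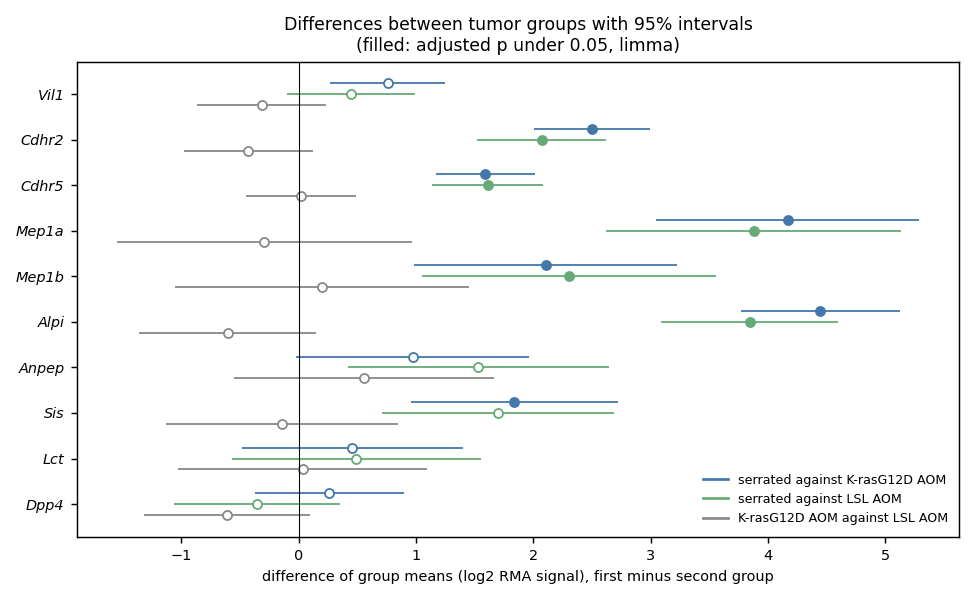
Differences of group means on the log2 scale are plotted for each gene, with bars for 95% intervals and filled points where the adjusted p was under 0.05. The intervals of serrated minus either AOM group lie above 0 for Cdhr2, Cdhr5, Mep1a, Mep1b, Alpi and Sis, and every interval between the AOM groups spans 0.

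Between the AOM groups, which differ in the K-ras label, none of the 10 genes passed in limma, and none had an unadjusted p under 0.05. Over all genes, 0% passed as higher and 0% as lower, while 8.36% had an unadjusted p under 0.05. None of the 10 genes passed under any of the 15 alternative settings either. The differences of K-rasG12D minus LSL ran from -0.61 ± 0.31 for Dpp4 to 0.56 ± 0.49 for Anpep. For Alpi (-0.60 ± 0.33) and Dpp4 all 3 K-rasG12D AOM arrays were below both LSL AOM arrays, which was so for 15.7% of all genes. The intervals were wide: that of Mep1a ran from -1.55 to 0.96 and that of Cdhr5 from -0.45 to 0.49.

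The other genes of the microvillus core and tip links were taken from a list of 24, all measured. Of these, 13 rose in serrated tumors, 0 fell and 11 did not pass, with a median difference of 0.88, beside 3.62% of all genes higher, 5.76% lower and a median of 0.04. Against LSL AOM tumors alone 11 of 24 passed as higher, beside 2.31% of all genes. Tmigd1, an adhesion protein of the epithelial surface, rose by 4.28 ± 0.37 (adjusted p = 0.000537, limma), from 4.39, 3.74, 5.55, 4.65 and 4.17 on the AOM arrays to 8.50, 9.11 and 8.69 in serrated tumors. Anks4b, the scaffold that joins the tip-link cadherins to the actin core, rose by 1.74 ± 0.21 (0.00201). Slc9a3r1, a scaffold under the apical membrane, rose by 1.81 ± 0.18 (0.00103). The microvillar motors Myo1a and Myo1d rose by 1.48 ± 0.17 (0.00163) and 1.31 ± 0.15 (0.00179). These 5 genes passed under all 15 alternative settings.

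Structural genes were not uniformly higher. Ezr, which ties the membrane to actin, differed by 0.28 ± 0.17 (adjusted p = 0.335, limma), and Myo7b, the motor of the tip-link complex, by 0.32 ± 0.25 (0.465). Baiap2l1 (-0.02 ± 0.15, adjusted p = 0.943) and Baiap2l2 (-0.69 ± 0.25, 0.125), which bind curved membrane, did not pass. The Baiap2l1 row stood at percentile 99.995 of all genes on every array, between 12.7 and 13.1, so a rise might not show there. These 4 genes were picked with their values in view. With scaling to epithelial genes 11 rose and 1 fell, beside 2.8% of all genes higher and 13.1% lower. With array weights 20 rose and 1 fell, beside 25.8% and 26% of all genes. The count of genes that rose ranged from 9 without serrated replicate 2 to 14 without serrated replicate 1 when arrays were left out. Of all genes, 1.38% and 6.09% rose in these fits.

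Of 18 measured genes from a list of 20 other brush border hydrolases, 6 rose, 0 fell and 12 did not pass, with a median difference of 0.47, beside the same 3.62% of all genes higher. Against LSL AOM tumors alone 2 of 18 passed as higher, beside 2.31% of all genes. Enpp3, an ectonucleotidase, rose by 3.13 ± 0.45 (adjusted p = 0.00459, limma), from between 2.34 and 2.75 on the AOM arrays to 7.13, 5.11 and 4.94 in serrated tumors. Entpd8, which also splits nucleotides, rose by 1.29 ± 0.23 (0.0107). The peptidases Xpnpep2, Dpep1 and Enpep rose by 1.29 ± 0.24 (0.0141), 2.11 ± 0.44 (0.0211) and 1.10 ± 0.24 (0.0255). The count fell to 1 gene, Enpp3, without serrated replicate 2, where 1.38% of all genes passed as higher. It fell to 4 without K-rasG12D AOM replicate 1 or 2 (2.06% and 2.22% of all genes) or serrated replicate 1 (6.09%). It also fell without either LSL AOM array, which leaves a single array in that group.

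Tmprss15, the enteropeptidase that activates trypsin, stood between 1.66 and 1.91 on all 8 arrays, and Treh, which splits trehalose, between 1.73 and 3.00. Mgam, another enzyme of starch digestion, stood between 6.98 and 8.06, with a difference of 0.22 ± 0.28 (adjusted p = 0.659, limma). Akp3, another intestinal alkaline phosphatase gene close in sequence to Alpi, stood between 3.04 and 3.97 and differed by 0.30 ± 0.19 (0.362). These 4 genes were chosen after their values were seen.

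**Figure D3:**
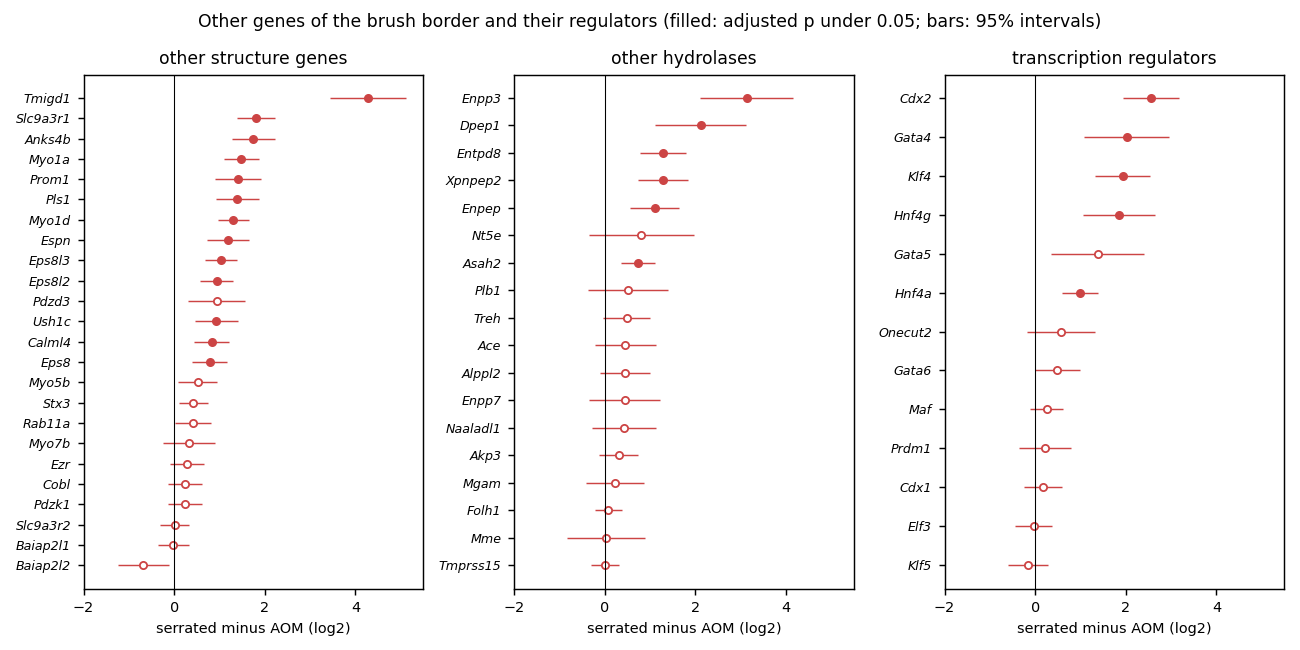
Differences of serrated minus AOM tumors on the log2 scale are plotted for 24 other structure genes, 18 other hydrolases and 13 transcription regulators, with bars for 95% intervals and filled points where the adjusted p was under 0.05. Filled points number 13, 6 and 5, and all of them lie above 0.

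Transcription regulators of enterocytes were taken from a list of 16, of which 13 were measured. In serrated tumors 5 rose, 0 fell and 8 did not pass, with a median of 0.57, again beside 3.62% of all genes higher. Against LSL AOM tumors alone 3 of 13 passed as higher, beside 2.31% of all genes. Cdx2, the homeobox factor of the intestinal lineage, rose by 2.56 ± 0.27 (adjusted p = 0.00130, limma), from 5.08, 5.73 and 5.44 in K-rasG12D AOM and 5.04 and 4.50 in LSL AOM tumors to 8.26, 7.17 and 7.52. Klf4, a factor of differentiated epithelium, rose by 1.93 ± 0.27 (0.00398). The nuclear receptors Hnf4a and Hnf4g rose by 0.99 ± 0.18 (0.0113) and 1.85 ± 0.35 (0.0146), and Gata4, a factor of the proximal gut, by 2.01 ± 0.42 (0.0207). Only Cdx2 and Klf4 of these 5 passed under all 15 alternative settings. Hnf4a did not pass without serrated replicate 2 (adjusted p = 0.0548, limma), and Hnf4g without serrated replicate 2 or LSL AOM replicate 2 (0.0516 to 0.0775). Gata4 did not pass without K-rasG12D AOM replicate 2, serrated replicate 2 or LSL AOM replicate 1 (0.0518 to 0.0951). The count that rose was 2 without serrated replicate 2 (1.38% of all genes) and 10, with 1 lower, with array weights (25.8% and 26% of all genes).

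Between the AOM groups no gene of these 3 lists passed. The smallest adjusted p values were those of Elf3 (-0.93, adjusted p = 0.282, limma), Cdx1 (-0.92, 0.308) and Eps8 (0.83, 0.310).

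Because Cdx2, Hnf4a, Hnf4g and Gata4 moved in the same comparison, the promoters of the brush border genes were searched for letters that such factors are known to bind. RefSeq sequence (GRCm38.p6) of the 250 bases before the transcript start was used for 9 of the 10 genes. Mep1b was left out of the search, so the counts out of 9 do not cover it. Both strands were searched. For CDX factors the letters were TTTATG, or else TTTATT, or else TTTACT. For HNF4 they were CAAAGT and for HNF1 they were GTTAAT. For GATA factors they were AGATAA, or else AGATAG, or else TGATAA, or else TGATAG. The Sis and Alpi promoters are shown in full, with these letters in capitals, because Sis is a textbook target of CDX2 and Alpi had the largest difference from all AOM tumors in the fit described (Mep1a was larger against LSL AOM tumors alone and with array weights). The Cdhr2 and Mep1a stretches are the 30 bases before the start, and they are shown because they hold CAAAGT.
Sis, chr3:72967864-72968113, minus strand: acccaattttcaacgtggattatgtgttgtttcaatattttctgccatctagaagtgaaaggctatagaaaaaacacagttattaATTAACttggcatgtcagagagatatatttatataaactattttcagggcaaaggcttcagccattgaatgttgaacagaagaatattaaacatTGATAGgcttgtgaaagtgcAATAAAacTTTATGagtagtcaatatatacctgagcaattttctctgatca
Alpi, chr1:87101607-87101856, minus strand: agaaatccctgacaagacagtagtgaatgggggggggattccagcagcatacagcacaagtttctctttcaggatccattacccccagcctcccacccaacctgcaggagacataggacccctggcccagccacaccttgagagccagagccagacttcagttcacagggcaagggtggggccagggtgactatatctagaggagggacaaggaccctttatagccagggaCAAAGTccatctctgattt
Cdhr2, chr13:54701433-54701462, plus strand: gagatggtgcCAAAGTctgcgctgtgttct
Mep1a, chr17:43502774-43502803, minus strand: tCAAAGTttgcaccgcgacagtgagagcaa

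In the Sis promoter AATAAA, the reverse complement of TTTATT, lay at bases -51 to -46 and TTTATG at -43 to -38, counted back from the transcript start. TGATAG lay at -71 to -66 and ATTAAC, the reverse complement of GTTAAT, at -165 to -160, and none of these matches overlapped. CAAAGT lay at -19 to -14 in Alpi, -20 to -15 in Cdhr2 and -29 to -24 in Mep1a, on the strand of the gene each time. The Mep1a position counts from a transcript start that lies inside the gene span RefSeq gives. Over the full 250 bases CAAAGT was found in 3 of the 9 promoters, and in 11.9% of 21262 promoters of protein-coding genes. Within the last 30 bases on the strand of the gene it was found in the same 3 of 9, and in 0.55% of the 21262; that window was chosen after the positions were seen. CDX letters were found in 3 of 9 (Cdhr5, Sis and Lct) against 27.9% of all, and HNF1 letters in 2 of 9 (Cdhr2 and Sis) against 5.86%. GATA letters were found in 6 of 9 (Vil1, Cdhr5, Mep1a, Sis, Lct and Dpp4) against 23.6%. Of these genes with GATA letters, Cdhr5, Mep1a and Sis passed in serrated against AOM tumors, and Vil1, Lct and Dpp4 did not. The Anpep promoter held none of these letters, and a match or its lack says only which letters stand there.

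The genes most like each brush border gene were found by the root-mean-square difference of centred levels over the 8 arrays, in log2 units. Mep1a and Alpi were the closest pair among the 10, at 0.38, although each varied by about 2.06 to 2.08 around its own mean. Cdhr2 and Cdhr5 followed at 0.41. Over all genes, those nearest to Cdhr5 were Anks4b (0.13), Sdcbp2 (0.13) and Myo1a (0.15), and those nearest to Cdhr2 were Ethe1 (0.20), Vdr (0.21) and Fam13a (0.24). Nearest to Mep1a were Sult1d1 (0.31), Gcnt3 (0.38) and Alpi, and nearest to Alpi were Mep1a, Slc3a1 (0.45) and Hsd3b3 (0.48). Mep1b was nearest to Mgat4c (0.25), Sult1b1 (0.29) and Pmp22 (0.37), and Sis to Capn9 (0.27), Fmn1 (0.28) and Gm1123 (0.29). Anpep was nearest to Sgk1 (0.29), Fmn1 (0.35) and Pmaip1 (0.36). Vil1, Lct and Dpp4 varied little, and their nearest genes were Sec16b (0.10), Tex46 (0.10) and Eef2kmt (0.16), followed by Grtp1 (0.11) and Dolpp1 (0.13), Krtap17-1 (0.11) and 4930431F12Rik (0.11), and Snx8 (0.19) and Rpa2 (0.21).

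Each tumor is a mixture of cells, and in such bulk samples fewer cells of a type and less RNA per cell cannot be told apart. Of 10 measured epithelial markers, 1 rose in serrated tumors, Krt20, a keratin of mature surface cells (2.53 ± 0.49, adjusted p = 0.0162, limma), and 0 fell. Over all genes 3.62% rose and 5.76% fell. Leaving out serrated replicate 2, or LSL AOM replicate 1, ended the call of Krt20 (adjusted p between 0.0637 and 0.0792). The mean of the epithelial list was 9.79 to 10.02 on serrated and 9.41 to 9.72 on AOM arrays, and none of its genes was below the array median. With each array scaled to 6 general epithelial genes, whose mean ran from 9.74 to 10.05 on AOM and 9.98 to 10.16 on serrated arrays, the same 6 brush border genes passed. That scaling moved the median difference of all genes from 0.04 to -0.14, and with it 2.8% of all genes passed as higher and 13.1% as lower. Alpi then differed by 3.96, Mep1a by 3.84, Cdhr2 by 2.10, Mep1b by 2.02, Sis by 1.58 and Cdhr5 by 1.41.

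Markers of other cells moved too. Of 8 macrophage markers, 5 fell in serrated tumors and 0 rose, and the list mean was 4.82 to 5.61 on serrated and 5.94 to 6.61 on AOM arrays. Over all genes 5.76% fell. The count was 1, Lyz2, without serrated replicate 2, it was 2 without LSL AOM replicate 1, and it was 3 without K-rasG12D AOM replicate 2 or 3 or serrated replicate 1. It was 8 with array weights or scaling to epithelial genes, where 26% and 13.1% of all genes fell. Of 9 fibroblast markers, 3 fell and 0 rose, with list means of 5.65 to 6.44 and 6.36 to 7.20. The count was 0 without serrated replicate 2, where limma passed 1.85% of all genes as lower, and 1 without K-rasG12D AOM replicate 2 or LSL AOM replicate 1. It was 5 without serrated replicate 3, with scaling to epithelial genes or with the dimmest genes left out, and 6, with 1 higher, with array weights. None of 7 T cell, 3 B cell, 5 endothelial or 6 smooth muscle markers passed against AOM tumors. Against LSL AOM tumors alone 1 T cell marker, Cd3g, passed as higher (1.59 ± 0.37, adjusted p = 0.0417, limma). Their part in the differences of brush border genes was not tested.

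None of 6 pancreatic acinar and 6 liver markers passed. Of 4 Paneth cell markers 3 did not pass and Lyz1, a lysozyme gene, fell by 3.50 (adjusted p = 0.00775, limma), beside 5.76% of all genes. Lyz2, the lysozyme gene on the macrophage list, fell by 2.67 (0.00908). Of 5 ileal bile acid genes, the transporter Slc51a rose (2.05 ± 0.40, adjusted p = 0.0160, limma) and 4 did not pass, beside 3.62% of all genes higher. Fabp6, the ileal bile acid binding protein, stood between 1.67 and 2.19 on all 8 arrays, all far below the array medians. Slc51b differed by 1.23 and did not pass (adjusted p = 0.0971, limma). The mean of the ileal list was 3.70 to 4.54 on serrated and 3.14 to 3.54 on AOM arrays, and 4 of the 5 differences were above 0. Slc51a did not pass without serrated replicate 2 or either LSL AOM array (adjusted p between 0.0549 and 0.0582).

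**Figure D4:**
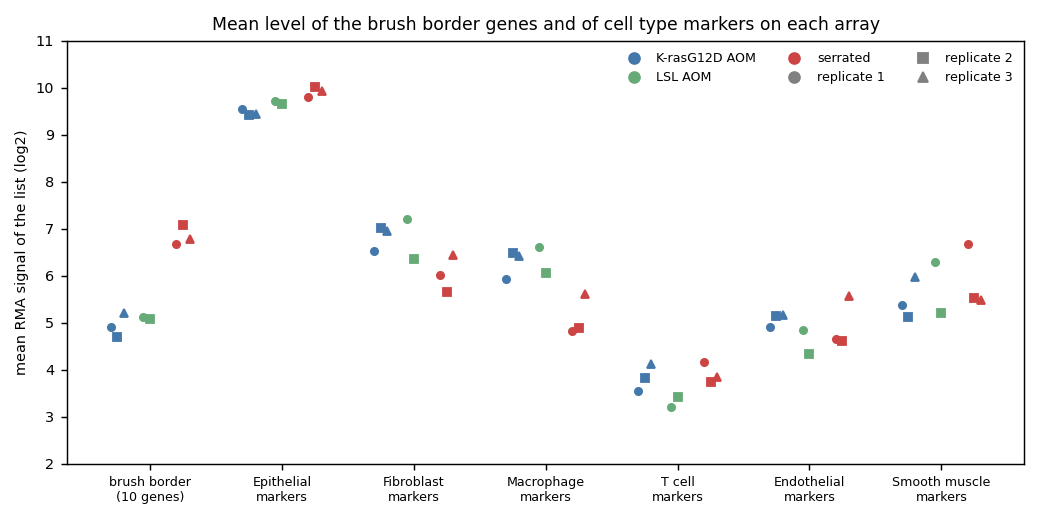
Mean log2 RMA signal of the 10 brush border genes and of 6 marker lists is plotted for each array, coloured by group and shaped by replicate. The brush border mean is 6.68 to 7.08 on serrated and 4.70 to 5.20 on AOM arrays, while the macrophage mean is lower on serrated arrays and the T cell, endothelial and smooth muscle means overlap.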

How the data were processed

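RNA of 8 colonic tumors was extracted with a Qiagen kit and labelled by the Affymetrix standard procedure, per the labels' protocols. The deposited values are log2 signals made with RMA (robust multi-array average), and the submitters' processing notes list GCOS and RMA without versions. The values ran from 0.564 to 13.5. RMA settings and genome build are not given in the sources used here. Of 35557 probe sets, 21789 carried exactly 1 gene symbol in the platform annotation. Where a gene had several rows, the row with the highest mean over the 8 arrays was kept, which gave 19938 genes. No filter on dim genes was set.

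One limma fit (limma 3.58.1, R 4.3.3) with a mean for each of the 3 groups used the 8 arrays together, with trend and robust off and 5 residual degrees of freedom, and gave 4 contrasts. The AOM level is the unweighted mean of both AOM group means. Precision is limited by the number of arrays. The fit was tested on simulated data. The named genes are the 10 brush border genes, and from each further list up to 5 of smallest adjusted p against AOM tumors and up to 2 between AOM groups, beside the 3 nearest genes of each brush border gene. A few others are marked in the text as picked after their values were seen. Genes and lists were chosen with earlier results of these data known. Alternatives were 7 settings of fit, scaling and filter, and leaving out each of the 8 arrays.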

Additional observations from a re-analysis of the deposited data

How the results depend on the processing

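For serrated against AOM tumors, Cdhr2, Cdhr5, Mep1a and Alpi passed under all 15 alternatives, and the number of brush border genes that passed ran from 4 to 9, the 9 with array weights including Dpp4 as lower, against 6 in the fit described. With array weights 25.8% of all genes passed as higher and 26% as lower. Against LSL AOM tumors the number was 8 with array weights, where 15.1% of all genes passed as higher and 16.8% as lower. When single arrays were left out the number against LSL AOM tumors rose to 6 without serrated replicate 3. It stayed at the 5 of the fit described without K-rasG12D AOM replicate 2 or 3 or serrated replicate 1. It fell below 5 without K-rasG12D AOM replicate 1 or serrated replicate 2. Fits that leave a single LSL AOM array are not counted here. Of all genes, 3.67% passed as higher without serrated replicate 3 and 0.777% without serrated replicate 2, against 2.31% in the fit described. Array weights gave serrated replicate 2 a weight of 25.6 and the other arrays 0.17 to 2.01, and their estimation stopped before it converged, so those values rest largely on 1 serrated array. The filter that leaves out the dimmest 40% of genes removed Sis and Lct. Averaging probe sets left each brush border gene at its own row. Signs turned only for differences that had not passed in the fit described, and the cause was not tested. Dpp4, serrated against AOM, was 0.066 with quantile normalization, 0.016 with the 5 AOM arrays as 1 group in the fit, and from -0.30 to 0.22 when arrays were left out. Dpp4 against K-rasG12D AOM was -0.32 with array weights. Lct, leaving out arrays, ran from -0.038 to 0.88 against AOM, -0.055 to 0.86 against K-rasG12D AOM, -0.021 to 0.90 against LSL AOM and -0.30 to 0.37 between AOM groups. Between AOM groups Cdhr5 was -0.0076 with quantile normalization and from -0.066 to 0.14 without single arrays, Mep1a ran from -0.63 to 0.047 and Mep1b from -0.29 to 0.83. No paired analysis was possible because replicate numbers were given in accession order and pair no samples. With 2 or 3 arrays a group, the differences of Vil1 and Anpep did not pass. Size alone did not decide this. Hnf4a, with a smaller error, passed at 0.99 (adjusted p = 0.0113, limma), a smaller difference than that of Anpep.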
